A study of Mus musculus with 12 samples.

Results

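Mouse liver cells that received iron and shared their medium with macrophages were compared with the same cells given neither. The comparison used 6 of the 12 arrays of the study: 3 of BNL CL.2 cells that had both FAC and RAW 264.7 cells, here called the combined arrays, against 3 of BNL CL.2 cells alone. BNL CL.2 is a line from embryonic mouse liver, RAW 264.7 is a mouse macrophage-like line, and FAC is ferric ammonium citrate, a soluble iron salt. Cells were cultured for 24 h, with iron at 100 micromolar, and the partner cells sat in an insert, apart from the cells that stand in the labels as the sample. Per the labels' protocols, the insert of the alone group held further BNL CL.2 cells, so both groups had a partner population. The remaining 6 arrays, 3 with iron and no macrophages and 3 with macrophages and no iron, were used for the estimate of the spread and for a second comparison that shares no array with the first. Each group is 1 cell line without a genetic change, and the titles number the replicates 1 to 3 without saying whether they are separate cultures. P values therefore measure the spread between these samples, which may be technical.

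Cells sense iron through iron regulatory proteins, which hold on to the transferrin receptor message when iron is scarce and let it decay when iron is plentiful. Iron that is free to react oxidises lipids and proteins, and the transcription factor NRF2 answers with glutathione and heme-clearing enzymes. Macrophages speak to liver cells through interferons and inflammatory cytokines, which act through the transcription complex ISGF3, which binds DNA by IRF9, through NF-kB and through STAT3. Liver cells answer with antiviral proteins, chemokines and acute phase proteins.

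The values are log2 signals, so a difference of 1 is a doubling, and limma tested the 18194 genes that at least 1 probe set names alone, in 1 fit of the 12 arrays. Without regard to the replicate number, 0 genes were higher and 0 lower at an adjusted p under 0.05, and 496 higher and 391 lower had an unadjusted p under 0.05; the smallest adjusted p was 0.1915. Arrays with the same replicate number deviated together in every pair, and with the number as an additive block, limma called 26 genes higher, 0.143% of those tested, and 11 lower, 0.0605%. Adjusted p of the called genes ran from 0.00824 to 0.0446. In what follows, SE and adjusted p come from limma with the block, and a gene is said to have risen or fallen only where it passed there. The fit without the block had been set as the main one, and the block as its alternative. Blocked SE and p may be understated, for the reason given with the processing. The plot of all genes shows that some of the highest differences did not pass, Xaf1 at 2.78 among them.

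**Figure D1:**
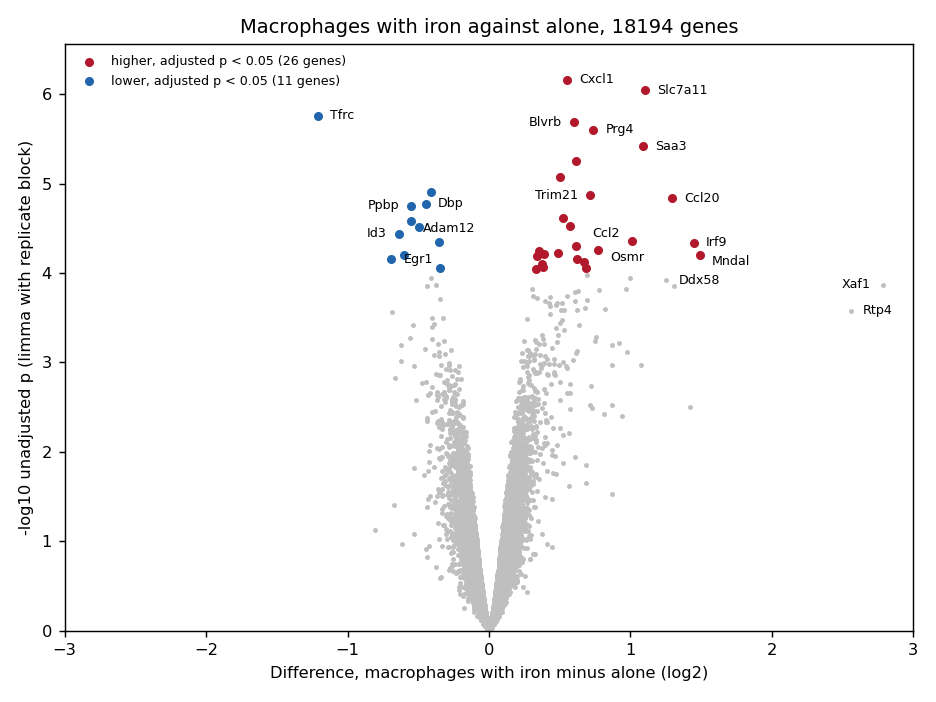
Difference of each of the 18194 genes between the combined and the alone arrays (horizontal axis, log2) against -log10 of its unadjusted p in limma with the replicate block (vertical axis). The 26 genes called higher are red and the 11 called lower are blue; Tfrc, at -1.21, stands apart on the left, and Xaf1 lies far to the right without passing.

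The calls rest on few arrays. With the block, leaving out the alone array of number 2, or the combined array of number 2 or 3, gave 0 genes higher and 0 lower. Leaving out the alone array of number 3 gave 4 higher and 1 lower, while leaving out any other array gave 11 to 29 higher and 4 to 14 lower, among which 11 to 18 of the 26 and 3 to 10 of the 11 were found again. The bar plot gives the count without each array. Of the 12 fits that left 1 array out, Tfrc, Slc7a11, Blvrb, Cxcl1 and Prg4 were called in 9. Sqor, Lce1i and Gm3363 were called in 0 of them, and Slc39a4, Xdh, Cyb561, Zfp735, Il1f9, Slc26a6 and Socs4 in 1. The other called genes lay between. In the 37 called genes, all 3 same-number pairs had the sign of the mean difference. Over all genes that held for 15.4% with a positive sign and 14.6% with a negative one. The 3 combined arrays did not overlap the 3 alone arrays in 11 of the 26 genes called higher and 6 of the 11 called lower. Over all genes the shares were 4.67% and 4.36%. The genes were called on these same arrays, by a fit that favours agreement within numbers. Both counts therefore describe the called genes and are no separate support for the calls.

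**Figure D2:**
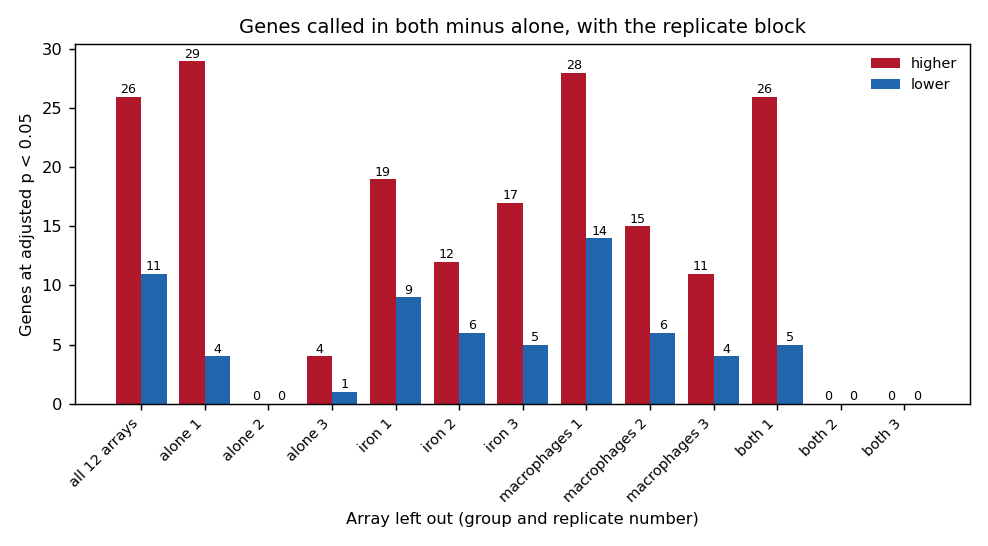
Number of genes at an adjusted p under 0.05 (vertical axis), higher in red and lower in blue, with all 12 arrays and with each array left out in turn (horizontal axis, group and replicate number; "both" is the combined group). The counts of 26 and 11 go to 0 without alone 2, both 2 or both 3.

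Most markers of macrophages were low in both groups. Of 18 macrophage markers, 15 had a mean level below that of the median gene, and 0 were called. The 3 above it were Cd14, Cd53 and Laptm5, with means of 12.03, 7.47 and 6.88 alone. Cd14 differed by 0.09 ± 0.06. The summed signal of the 18 spanned 12.21 to 12.36 (log2) alone and 12.30 to 12.43 in the combined arrays, which overlap. Signals were summed before the log, so Cd14 made up most of the sum, which says little about the other markers. Lyz2, lysozyme of myeloid cells, differed by 0.09 ± 0.11, and Cd68, a lysosomal protein of macrophages, by 0.10 ± 0.14. Of 18 hepatocyte markers, 14 had a mean level below the median gene; Alb, serum albumin, read 5.08, 5.26 and 5.24 alone and differed by -0.03 ± 0.09. The 4 above the median gene were Apob, the main protein of secreted lipoproteins, at a mean of 11.77 alone, the liver transcription factors Foxa2 and Hnf4a at 11.11 and 10.56, and Afp, a plasma protein of fetal liver, at 8.76. Afp differed by 0.53 and did not pass (adjusted p 0.0694). All 18 probe sets for the spiked hybridization controls were higher in the combined arrays, by 0.19 to 0.53 with a median of 0.37; their mean differed by 0.35 (exact permutation test, two-sided, p = 0.1, the smallest that 3 arrays against 3 allow). The mean of the spiked controls read 10.24, 10.35 and 10.59 in the alone arrays and 10.59, 10.62 and 11.03 in the combined arrays. Combined array 3, without which 0 genes were called with the block, thus read highest of the 12 arrays. The median of all genes differed by 0.0042, and the part of the spiked controls in the results was not tested. The difference between the 3′ and 5′ control probe sets, a sign of RNA quality, changed by -0.02 for Actb (exact permutation test, two-sided, p = 0.5) and by 0.01 for Gapdh (p = 0.9).

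Promoters of tested genes were read for the interferon-stimulated response element, the site that ISGF3 binds, because IRF9 itself was among the genes that rose. The letters searched were GAAA, any 2 bases and GAAA, on both strands, in the 250 bases before each start in RefSeq (GRCm38.p6), which covered 14369 of the tested genes and 27 of the 37 called. Mndal, an interferon-inducible DNA sensor of the Ifi200 family, has 2 starts in RefSeq and a match before each. The windows run 5′ to 3′ along the gene's strand with the matches in capitals, and Irgm1, Ifit1, Saa3 and Sqor are set beside Mndal to show matches that overlap, follow each other or stand alone. Irgm1 and Ifit1 did not pass (limma with the block, adjusted p 0.0646 and 0.42).
Mndal, chr1:173880199-173880238, minus strand: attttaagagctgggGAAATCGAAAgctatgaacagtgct
Mndal, chr1:173879988-173880027, minus strand: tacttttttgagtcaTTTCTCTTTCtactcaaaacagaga
Irgm1, chr11:48871421-48871465, minus strand: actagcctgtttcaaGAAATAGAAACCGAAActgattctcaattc
Ifit1, chr19:34640770-34640828, plus strand: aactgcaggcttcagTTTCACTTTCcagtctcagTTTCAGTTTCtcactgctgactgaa
Saa3, chr7:46715777-46715816, minus strand: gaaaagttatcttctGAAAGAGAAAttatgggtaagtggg
Sqor, chr2:122771549-122771588, plus strand: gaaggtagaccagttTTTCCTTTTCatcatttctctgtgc

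In Irgm1 the 2 matches overlap and lie 30 to 15 bases before the start; in Ifit1 they lie 104 to 76 bases before it. The match was present in 3.15% of the promoters of all tested genes, in 3 of 19 promoters of genes that rose (15.8%), in 0 of 8 of those that fell, and in 8 of 24 of the antiviral effectors (33.3%). The 3 genes that rose with a match were Mndal, Saa3 and Sqor, and Sqor was at -0.09 with macrophages without iron against alone. The antioxidant response element bound by NRF2, searched on both strands as TGAC, any 3 bases and GC, was in 13.4% of all promoters, in 6 of 26 of NRF2 targets (23.1%), in 1 of 19 of genes that rose (Hpx) and in 1 of 8 of genes that fell (Efnb2). A match describes these letters only.

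The difference between the combined and the alone arrays is, for each gene, the sum of the average difference made by iron, with and without macrophages, and the average difference made by macrophages, with and without iron. The average iron part was the larger one in 28 of the 37 called genes and the macrophage part in 9. Both parts share arrays with the sum, so the split is arithmetic. A second reading is the difference between the macrophage arrays without iron and the iron arrays without macrophages, here macrophages minus iron, which uses 6 other arrays. Its errors are not independent of the first: same-number arrays correlated in their deviations with a median of 0.43 where both or neither had iron and 0.31 where only one had. Shared deviation of that kind tends to give the 2 differences opposite signs, so the counts that follow are a description. Macrophages minus iron was below 0 in 17 of the 26 genes that rose and above 0 in 9, and above 0 in 11 of the 11 that fell. Over all genes it was called higher in 9, 0.0495%, and lower in 31, 0.17%, with the block, and in 0 in either direction without it, where 530 and 476 genes had an unadjusted p under 0.05. Of the 26 genes that rose, 5 were called lower and 2 higher in macrophages minus iron, and of the 11 that fell, 4 were called higher.

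**Figure D3:**
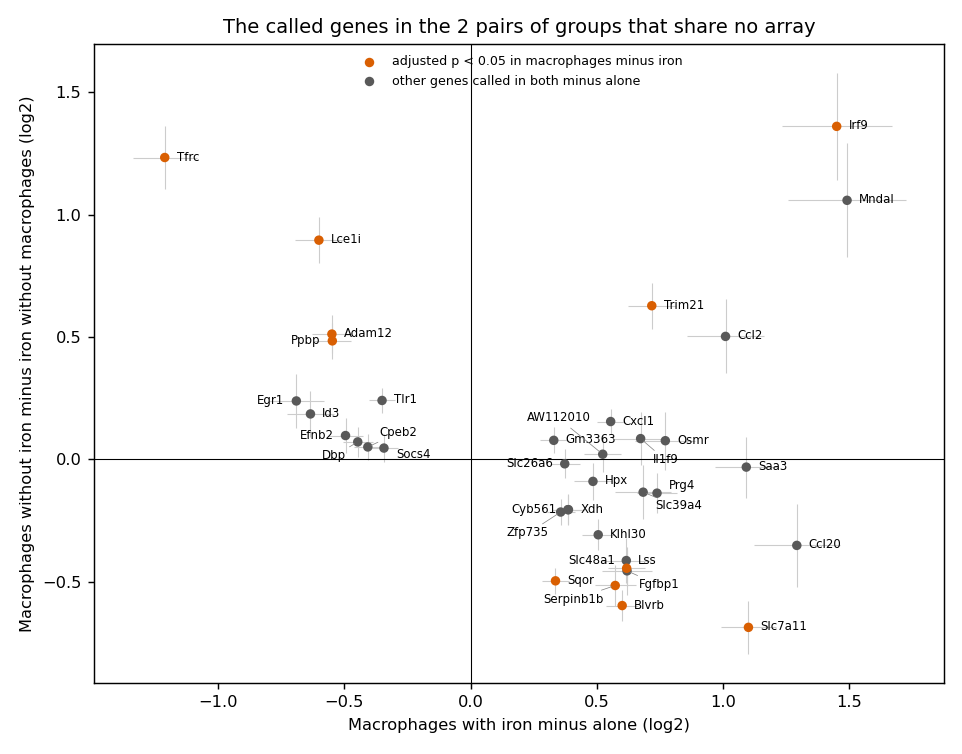
The 37 called genes by their difference between the combined and the alone arrays (horizontal axis, log2) and between macrophages without iron and iron without macrophages (vertical axis, log2), 2 pairs of groups with no array in common; lines are SE from limma with the block, n = 3 arrays per group, and orange marks an adjusted p under 0.05 on the vertical axis. Slc7a11 lies at 1.10 and -0.69, Irf9 at 1.45 and 1.36, and Tfrc at -1.21 and 1.23.

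Tfrc, the transferrin receptor that takes iron into the cell, fell the most of all genes. Its log2 signal read 13.28, 13.29 and 13.11 alone (replicate numbers 1, 2 and 3) and 12.31, 12.18 and 11.55 in the combined arrays. The groups did not overlap, and number 3 had the lowest signal in each. The difference was -1.21 ± 0.13, a 2.32-fold lower signal (adjusted p 0.00908; over 34 alternative settings 0.0038 to 0.9995, the fits without the block included). All 6 probe sets of Tfrc were lower, by 0.23 to 1.42 in size. Iron without macrophages differed from alone by -1.25 and macrophages without iron by -0.01, and macrophages minus iron was 1.23 (adjusted p 0.0065). The iron export channel Slc40a1 differed by 0.25 ± 0.09 and did not pass (adjusted p 0.37). Fth1, the ferritin heavy chain that stores iron, differed by 0.07 ± 0.05, and Hamp, the iron hormone hepcidin, by -0.06 ± 0.07. Of the 16 genes of iron uptake and its control, 1 fell, Tfrc, and 0 rose, with a median of 0.02. Of the 10 measured genes of iron storage, export and hepcidin control, 0 passed as read from 1 probe set per gene. Cp, in this second list, differed by 0.43 ± 0.08 (adjusted p 0.0637). Its 8 probe sets ran from -0.01 to 0.66, with 7 above 0. The highest was called in the limma fit of all 45101 probe sets with the block (adjusted p 0.0492).

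Slc7a11, the cystine importer that feeds glutathione synthesis, rose. It read 6.33, 7.44 and 7.24 alone and 7.35, 8.66 and 8.31 in the combined arrays. The lowest combined array lay below the highest alone array, yet within each number the combined array was higher, by 1.02, 1.22 and 1.07. The difference was 1.10 ± 0.11, or 2.14-fold (adjusted p 0.00824; 0.000132 to 0.9995 over 34 alternatives). Its other probe set differed by 0.48. In the fit of the 6 arrays with the block Slc7a11 was the 1 gene that passed (adjusted p 0.0276). Iron alone differed by 0.83 and macrophages alone by 0.15, and macrophages minus iron was -0.69 (adjusted p 0.0457).

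Of 16 measured genes of heme handling, 2 rose and 0 fell, where 0.143% of all genes rose. In the list 11 were above 0 and 5 below, with a median of 0.06. Blvrb, biliverdin reductase B, read 9.56, 10.09 and 10.02 alone and 10.10, 10.82 and 10.57 in the combined arrays. Each combined array was above each alone array, if narrowly. Its difference was 0.60 ± 0.06 (adjusted p 0.00908), with -0.60 in macrophages minus iron (adjusted p 0.0065). Slc48a1, which carries heme out of endosomes and lysosomes, differed by 0.62 ± 0.07 (adjusted p 0.0144) and by -0.45 in macrophages minus iron (adjusted p 0.0465). Hmox1, the heme oxygenase that opens heme, read 8.94, 9.43 and 9.12 alone and 9.21, 10.30 and 9.87 in the combined arrays; its difference of 0.63 ± 0.11 did not pass (adjusted p 0.0594).

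Among 31 measured NRF2 targets, 2 rose (Slc7a11 and Blvrb), 0 fell, and 26 had a positive difference, with a median of 0.24 against 0.0042 over all genes. Gsta2, a glutathione transferase, differed by 1.00 ± 0.17 (adjusted p 0.0521) and Nqo1, a quinone reductase, by 0.48 ± 0.09 (adjusted p 0.0676); neither passed. Nqo1 read 5.75, 5.93 and 6.33 alone and 6.36, 6.54 and 6.54 in the combined arrays, without overlap, and was lower by 0.60 in macrophages minus iron (adjusted p 0.0427). Macrophages minus iron was above 0 in 2 of the 31 targets, with a median of -0.29. Over all 18194 genes, 9444 had a positive difference and 9771 were above 0 in macrophages minus iron, where the median was 0.0081.

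Cholesterol synthesis had the highest median of the 31 pathway lists. Lss, which makes lanosterol, the first sterol, rose by 0.62 ± 0.09 (adjusted p 0.0404). It read 9.54, 9.27 and 9.92 alone and 10.00, 10.02 and 10.55 in the combined arrays. Its 3 probe sets ran from 0.13 to 0.62. Lss was the 1 of 20 measured members that passed, while 20 of 20 were above 0, with a median of 0.38. Mvd, an enzyme of the mevalonate path, differed by 0.62 ± 0.12 (adjusted p 0.0694), Fdps, which makes farnesyl diphosphate, by 0.52 ± 0.10 (adjusted p 0.0812) and Dhcr7, the last reductase of the path, by 0.48 ± 0.09 (adjusted p 0.0646); these 3 did not pass. The other probe set of Fdps differed by 0.05. Macrophages minus iron was above 0 in 0 of the 20, with a median of -0.36. Its median by replicate number was 0.33, 0.59 and 0.21 for the combined against the alone arrays, highest in number 2. Without the 4 arrays of number 2, 0 genes were called in either direction.

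Chaperones of the endoplasmic reticulum, the amino acid response and fatty acid synthesis had positive medians and 0 called genes. Of 22 chaperones of the endoplasmic reticulum, 21 were above 0, with a median of 0.26; Hspa5, the main chaperone there, read 13.25, 13.85 and 13.78 alone and differed by 0.26 ± 0.06, and Sdf2l1, its helper, by 0.55 ± 0.13. Of 23 genes of the amino acid response led by ATF4, 18 were above 0, with a median of 0.19; Trib3, a pseudokinase of that response, differed by 0.53 ± 0.10 and Cth, which makes cysteine, by 0.52 ± 0.09. By replicate number that median was -0.01, 0.33 and 0.28, so number 1 did not share it. Fatty acid synthesis had 13 of 16 above 0 and a median of 0.18, with Elovl6, a fatty acid elongase, at 0.40 ± 0.07.

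Of the remaining genes that rose, 8 with the larger part from iron are given here, and others, Ccl20, Saa3 and Prg4 among them, below. Sqor, which oxidises hydrogen sulfide in mitochondria, differed by 0.34 ± 0.05 (adjusted p 0.0404), and by -0.50 in macrophages minus iron (adjusted p 0.0065); another of its probe sets differed by -0.03. Serpinb1b, a protease inhibitor, differed by 0.57 ± 0.08 (adjusted p 0.0327) and by -0.52 in macrophages minus iron (adjusted p 0.0457). Slc39a4, a zinc importer, differed by 0.68 ± 0.11, Fgfbp1, a carrier of fibroblast growth factors, by 0.62 ± 0.10, and Xdh, the xanthine dehydrogenase of purine breakdown, by 0.39 ± 0.06. Klhl30, at 0.51 ± 0.06, Cyb561, a membrane cytochrome, at 0.39 ± 0.06, and Zfp735, at 0.36 ± 0.06, completed the 8.

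Irf9, the DNA-binding subunit of ISGF3, rose. It read 7.11, 7.11 and 6.997 alone and 8.25, 8.42 and 8.91 in the combined arrays. All combined arrays were above all alone arrays by more than 1. The difference was 1.45 ± 0.22, or 2.73-fold (adjusted p 0.0395; 0.0186 to 0.9995 over 34 alternatives), and it was called in 4 of the 12 fits that left 1 array out. Iron alone differed by -0.05 and macrophages alone by 1.31, and macrophages minus iron was 1.36 (adjusted p 0.0457).

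Mndal read 5.35, 5.51 and 5.38 alone and 6.30, 7.07 and 7.35 in the combined arrays, again without overlap. Its difference was 1.49 ± 0.23, or 2.81-fold (adjusted p 0.0404), and macrophages minus iron was 1.06 (adjusted p 0.13, not passed). Genes of the Ifi200 family resemble each other, so the probe set may not tell Mndal from its relatives. Trim21, an antibody receptor inside the cell and a ubiquitin ligase, read 6.64, 6.39 and 6.63 alone and 7.01, 7.27 and 7.54 in the combined arrays, a rise of 0.72 ± 0.09 (adjusted p 0.0242), with 0.63 in macrophages minus iron (adjusted p 0.0457). Its other probe set differed by 0.38.

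Of 35 measured antiviral effectors of interferon, 2 rose (Mndal and Trim21), 0 fell, and 29 were above 0, with a median of 0.22. Xaf1, an interferon-induced promoter of cell death, had the highest difference of all genes without passing. It read 5.87, 5.999 and 6.36 alone and 7.66, 8.95 and 9.98 in the combined arrays, without overlap but with a spread of more than 2 among the combined arrays. The difference was 2.78 ± 0.48, or 6.89-fold (adjusted p 0.0563), while the other of its 2 probe sets differed by 0.03. Ddx58, the RIG-I sensor of viral RNA, differed by 1.25 ± 0.21 (adjusted p 0.0534), and its 3 probe sets ran from 0.12 to 1.25. Rtp4, named after its value was seen as the second highest difference, stood at 2.56 ± 0.48 (adjusted p 0.0699). Ifit1, an RNA-binding antiviral protein, read 4.42, 4.48 and 4.24 alone and 4.39, 4.95 and 6.40 in the combined arrays, so that number 1 showed no difference and number 3 the most.

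The same-number difference varied among genes. In Irf9, Mndal, Xaf1 and Ccl2, picked after their values were seen, the same-number difference was lowest in number 1 and highest in number 3: 1.13, 1.31 and 1.91 in Irf9, 0.95, 1.56 and 1.97 in Mndal, 1.79, 2.95 and 3.61 in Xaf1, and 0.64, 1.07 and 1.32 in Ccl2. Other genes had another order: AW112010 was lowest in number 3, with 0.60, 0.61 and 0.36, and Ccl20 and Osmr were highest in number 2, with 0.78, 1.90 and 1.20 in Ccl20 and 0.41, 1.22 and 0.69 in Osmr. The median of the antiviral list by number was 0.20, 0.30 and 0.40. In macrophages minus iron, on the other 6 arrays, 31 of the 35 antiviral effectors were above 0, with a median of 0.21. Over all genes those values were 9771 of 18194 and 0.0081. Replicate numbers have no order of their own, and what distinguished them was not tested.

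Guanosine-triphosphate-binding proteins that interferon induces had 7 of 9 above 0 and 0 called, with a median of 0.25; Irgm1, Irgm2 and Igtp of this family differed by 0.70 ± 0.13, 0.98 ± 0.21 and 0.87 ± 0.18, the smallest adjusted p being 0.0646. Antigen presentation on MHC class I had 12 of 14 above 0 and 0 called, with a median of 0.22. There H2-D1, a class I heavy chain, differed by 0.43 ± 0.08 and Tapbp, which loads peptides on it, by 0.48 ± 0.10; 1 of the 9 probe sets of H2-D1 was lower, at -0.05. Of 15 genes of interferon reception and signalling, 1 rose, Irf9; Irf7, which amplifies the interferon response, differed by 0.63 ± 0.12 (adjusted p 0.0886) and Usp18, which restrains it, by 1.42 with an adjusted p of 0.21.

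**Figure D4:**
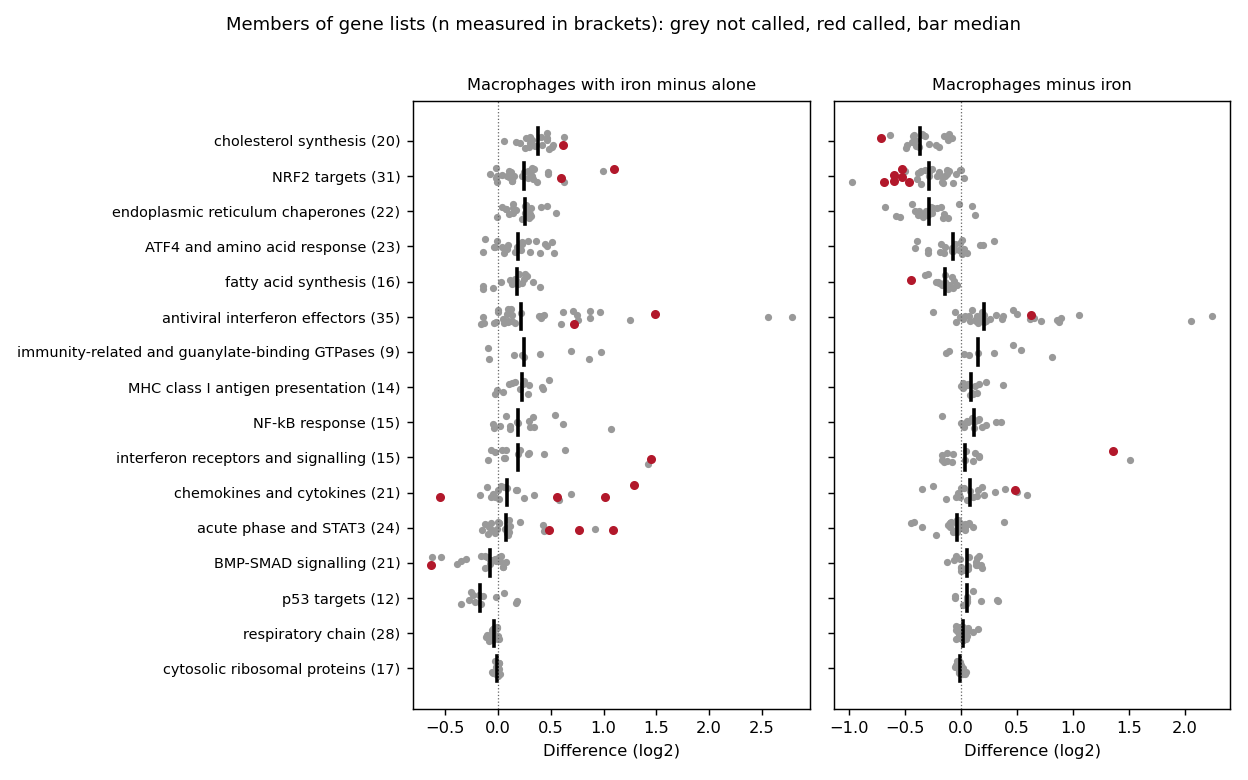
Members of 16 gene lists (rows, with the number measured) by their difference between the combined and the alone arrays (left, log2) and between macrophages and iron given singly (right, log2). Points are genes, red where the adjusted p was under 0.05 with the block, and bars are medians. The medians of cholesterol synthesis and NRF2 targets lie right of 0 in the left panel and left of 0 in the right panel. The median of the antiviral effectors lies right of 0 in both.

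Of 21 measured chemokines and cytokines, 3 rose in the combined arrays and 1 fell. In the list 15 were above 0 and 6 below, with a median of 0.08. Ccl2, which draws monocytes, read 10.51, 11.57 and 11.47 alone and 11.15, 12.64 and 12.79 in the combined arrays. The arrays of number 1 were low in both groups, so the groups overlap, and the combined array was higher in each number. The difference was 1.01 ± 0.15, or 2.01-fold (adjusted p 0.0395); iron alone differed by 0.11 and macrophages alone by 0.61. Cxcl1, which draws neutrophils, read 11.09, 12.59 and 12.22 alone and 11.55, 13.16 and 12.85 in the combined arrays, a rise of 0.55 ± 0.05 (adjusted p 0.00824). Ccl20, which draws cells that bear CCR6, read 8.20, 9.58 and 9.54 alone and 8.97, 11.48 and 10.74 in the combined arrays, a rise of 1.29 ± 0.17 (adjusted p 0.0242).

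The chemokines differed in how the sum was made up. In Ccl2 the average iron part was 0.25 ± 0.11 and the macrophage part 0.76 ± 0.11. In Cxcl1 the parts were 0.20 ± 0.04 and 0.35 ± 0.04, and in Ccl20 0.82 ± 0.12 and 0.47 ± 0.12. Macrophages minus iron was 0.50 in Ccl2, 0.15 in Cxcl1 and -0.35 in Ccl20, and none of the 3 passed. Ppbp, a platelet-type chemokine, fell by 0.55 ± 0.07 (adjusted p 0.0246), with 0.48 in macrophages minus iron (adjusted p 0.0457). Il6, a driver of the acute phase response, read 3.72, 3.52 and 3.34 alone and differed by -0.10 ± 0.16. Il1f9, a cytokine of the interleukin 1 family, rose by 0.67 ± 0.11 (adjusted p 0.043), with parts of 0.29 ± 0.08 and 0.38 ± 0.08.

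**Figure D5:**
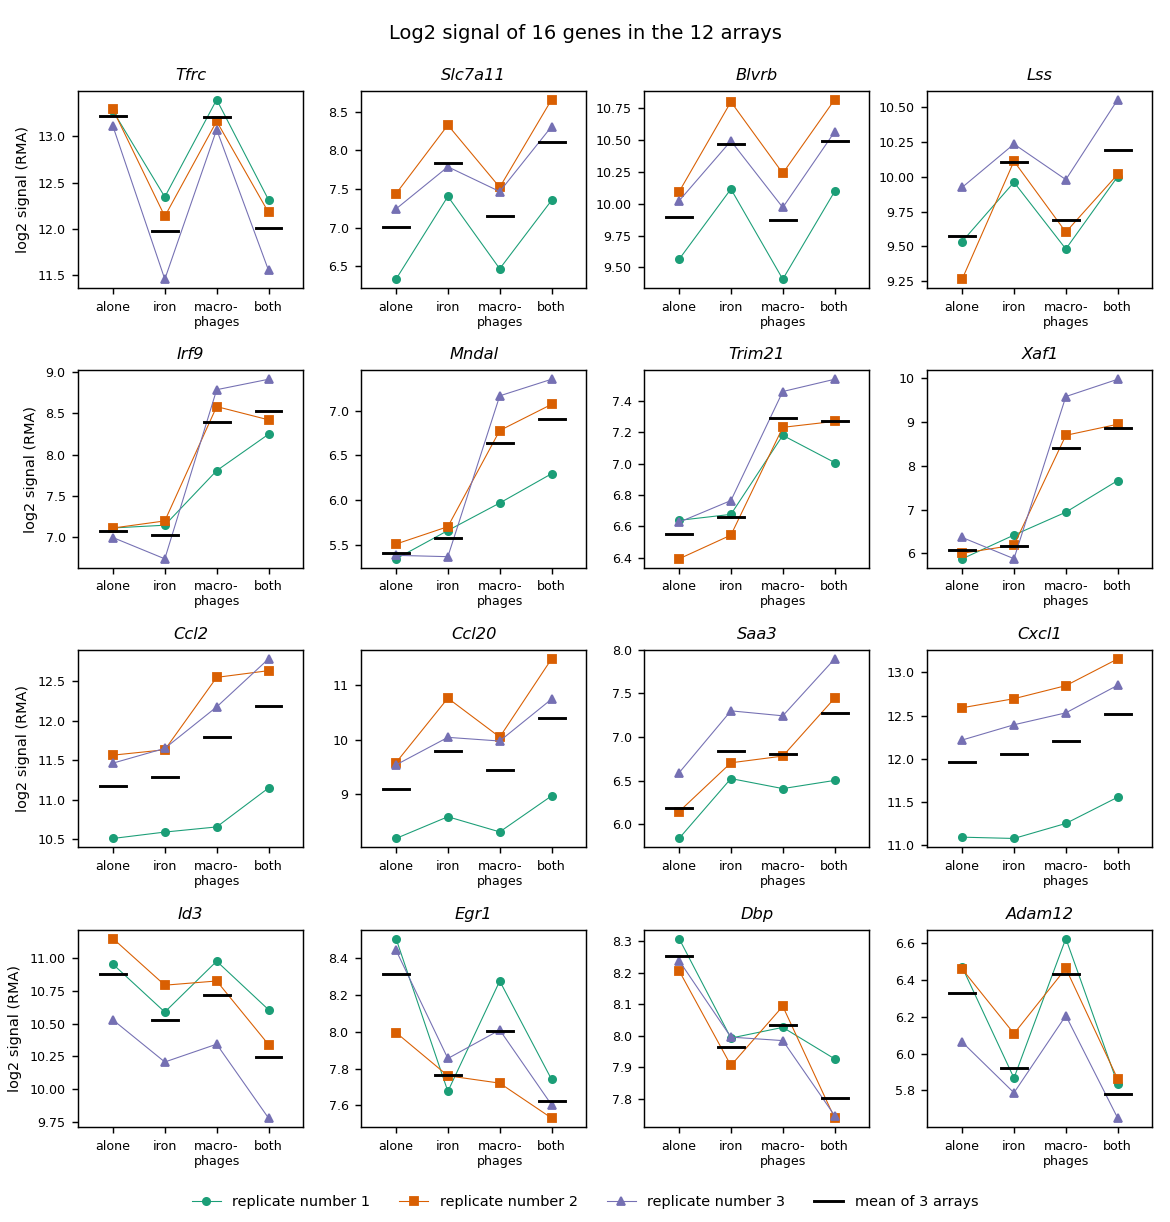
Log2 signal (vertical axes, each with its own range) of 16 genes in the 12 arrays by group (horizontal axes; "both" is the combined group); symbols and lines follow a replicate number, and black bars are the mean of 3 arrays. Tfrc is low in the groups with iron, Irf9 is high in the groups with macrophages, and Saa3 is higher in each single group than alone and highest in the combined group.

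The acute phase list rose at 3 of 24 measured members and fell at 0, with a median of 0.07. Saa3, a serum amyloid A protein made outside the liver as well, read 5.84, 6.15 and 6.59 alone and 6.503, 7.45 and 7.90 in the combined arrays. The lowest combined array lay under the highest alone array, and each number was higher with the combination. Its difference of 1.09 ± 0.12, or 2.13-fold (adjusted p 0.0116), was made of nearly equal parts, 0.56 ± 0.09 from iron and 0.53 ± 0.09 from macrophages. Macrophages minus iron was -0.03.

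Osmr, the receptor chain for oncostatin M, rose by 0.77 ± 0.12 (adjusted p 0.0404), with parts of 0.35 ± 0.08 and 0.42 ± 0.08; another of its probe sets was lower, at -0.18. Hpx, hemopexin, which binds free heme in plasma, rose by 0.48 ± 0.08 (adjusted p 0.0404). It read 7.97, 6.45 and 6.71 alone and 8.30, 7.04 and 7.24 in the combined arrays, where number 1 was high in both groups. Lcn2, which binds bacterial iron carriers, read 6.29, 5.30 and 6.65 alone and 6.54, 6.88 and 7.57 in the combined arrays; its difference of 0.92 ± 0.19 did not pass (adjusted p 0.12). Prg4, a lubricating proteoglycan, rose by 0.74 ± 0.08 (adjusted p 0.00908), with parts of 0.44 ± 0.06 and 0.30 ± 0.06. NF-kB response genes had 13 of 15 above 0, a median of 0.19 and 0 called. Vcam1, an adhesion molecule, read 6.02, 6.14 and 6.08 alone and 6.12, 8.03 and 7.32 in the combined arrays, so that number 1 again showed little difference. The 3 probe sets of Vcam1 ran from 0.09 to 1.07.

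AW112010, an interferon-inducible transcript, rose by 0.52 ± 0.07, the anion exchanger Slc26a6 by 0.37 ± 0.06 and Gm3363 by 0.33 ± 0.05, with adjusted p of 0.0314 to 0.0446. Macrophages minus iron lay between -0.02 and 0.08 in these 3.

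Id3, an inhibitor of helix-loop-helix factors and a target of bone morphogenetic proteins, fell. It read 10.95, 11.15 and 10.53 alone and 10.61, 10.34 and 9.78 in the combined arrays. The difference was -0.63 ± 0.09 (adjusted p 0.0366), with parts of -0.41 ± 0.07 from iron and -0.22 ± 0.07 from macrophages. It was the 1 of 21 genes of BMP and SMAD signalling that passed, 15 of which were below 0, with a median of -0.08. Id1, of the same kind as Id3, differed by -0.35 ± 0.08 (adjusted p 0.13), Smad6, which restrains the pathway, by -0.39 ± 0.08 (adjusted p 0.13) and Atoh8, a transcription factor downstream of it, by -0.54 ± 0.10 (adjusted p 0.0886).

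Egr1, an immediate early transcription factor, fell by 0.69 ± 0.11 (adjusted p 0.0411), from 8.51, 7.996 and 8.44 alone to 7.74, 7.53 and 7.603, without overlap. Dbp, a transcription factor of the circadian clock's output, fell by 0.45 ± 0.06 (adjusted p 0.0246), from 8.31, 8.21 and 8.24 to 7.93, 7.74 and 7.75, also without overlap. Of the 16 immediate early genes and of the 16 clock genes, Egr1 and Dbp were the 2 that passed, and the medians of the lists were -0.05 and -0.05. The other probe set of Dbp differed by -0.20.

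Adam12, a metalloprotease of the cell surface, fell by 0.55 ± 0.08 (adjusted p 0.0321), with parts of -0.53 ± 0.05 and -0.02 ± 0.05 and 0.51 in macrophages minus iron (adjusted p 0.0457). Its other probe set differed by -0.19. Efnb2, a ligand of Eph receptors, fell by 0.50 ± 0.07 (adjusted p 0.0327), though its probe sets ran from -0.50 to 0.13. Lce1i, a protein of the cornified envelope, fell by 0.60 ± 0.09 and was higher by 0.90 in macrophages minus iron (adjusted p 0.0065). Cpeb2, which controls translation, fell by 0.41 ± 0.05, Tlr1, a receptor of bacterial lipopeptides, by 0.35 ± 0.05 and Socs4, a suppressor of cytokine signalling, by 0.34 ± 0.06. The 4 probe sets of Socs4 ran from -0.34 to -0.02, and the 3 of Cpeb2 from -0.41 to -0.27. Cyp26b1, which breaks down retinoic acid, was among the 10 genes with the smallest p without the block and did not pass with it (-0.69 ± 0.13, adjusted p 0.0706).

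Lists of basic functions stayed near 0. Cytosolic ribosomal proteins had a median of -0.01 over 17 genes and the respiratory chain one of -0.04, with 25 of 28 below 0 and 0 called. The p53 targets had 9 of 12 below 0, a median of -0.17 and 0 called; by replicate number their median was -0.50, 0.04 and 0.02, so it came from number 1.

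Whether the combination differed from the sum of its parts was tested as an interaction. Of 18194 genes, 0 passed with limma, both without the block (smallest adjusted p 0.9999, 540 genes with an unadjusted p under 0.05) and with it (smallest adjusted p 0.999, 790 genes). Among the 37 called genes, the combined difference was larger in size than the sum of the single differences in 23 and smaller in 14. Unadjusted, limma's interaction term passed 0.05 in 3 of them: Cxcl1, with 0.22 more than the sum, Hpx, with 0.25 more, and Cpeb2, with an interaction of -0.19, a larger fall than the sum. A departure from the sum that missed the threshold does not show that the parts added up.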

How the data were processed

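Total RNA of 12 mouse cell samples was hybridised to Affymetrix arrays. The authors deposited log2 values; the submitters' processing notes name RMA and affy, without versions. They ran from 2.42 to 14.6, array medians lay between 5.63 and 5.68, and they were used as deposited. Precision is limited by the 3 arrays per group.

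Of 45101 probe sets, 34958 named 1 gene in the platform annotation, 932 named several and 9211 none. Each of 18194 genes was read from its probe set of highest average. Groups and replicate numbers came from the titles. With limma 3.58.1 (R 4.3.3), 4 group means were estimated over the 12 arrays (empirical Bayes, two-sided, Benjamini-Hochberg over all genes, threshold 0.05), without and with the replicate number as an additive block. The fits were tried on simulated data with 1 shared deviation per replicate number. Those data lacked the closer pairing by iron treatment given below, so they cannot show how the blocked p held here. Prior degrees of freedom were 4.90 and 4.48.

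Residuals of same-number arrays of different groups correlated at 0.263 to 0.529 over 18 pairs, all above 0.1, so the numbers pair the samples. The 36 other pairs ran from -0.349 to -0.0149. Residuals were taken from each group's own mean, so positive same-number correlations push the other pairs to negative values. Those pairs are therefore no separate support for the pairing. Same-number pairs of equal iron treatment correlated more (median 0.431) than pairs of unequal treatment (0.315). A single block term cannot take this up, so blocked SE and p may be understated.

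Of 681 entries in 37 gene lists, 633 were measured; 31 lists are of pathways and 6 of cell type markers. The compared groups, the members and the lists were chosen with earlier results of these data known. Named genes were up to 12 called in each direction with no overlap (the 10 smallest p where under 5 passed), up to 4 members of each list by absolute t, and a fixed set of 18 that covers iron, inflammation, macrophages and liver. Other called genes and Rtp4 were named after their values were seen. Promoters are from RefSeq (GRCm38.p6). Alternatives were the 6 arrays alone, moderation with trend and robust, low values left out, centring, quantile normalization, mean of probe sets, and leaving arrays out; combinations with the block not listed at the outset were added after seeing the data. Python 3.11.15 with pandas 2.3.3 and matplotlib 3.10.9 made tables and plots.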

Additional observations from a re-analysis of the deposited data

Results flagged for a closer look

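Outside the 1 probe set per gene, a fit of all 45101 probe sets with the replicate block called 21 higher and 13 lower in the combined arrays, and 4 of these probe sets name no single gene. Probe set 1451567_a_at, which names Ifi203 and others of the interferon-inducible Ifi200 family, was higher by 2.33 (log2); it read 5.92, 5.86 and 5.49 alone and 7.38, 8.30 and 8.59 in the combined arrays. Probe set 1457666_s_at, which names Ifi202b and a second gene, was higher by 1.38, with 8.27, 8.84 and 8.84 alone and 9.39, 10.14 and 10.57 in the combined arrays. Probe set 1448136_at has no gene in the annotation used and was higher by 0.91, with 5.34, 5.89 and 6.09 alone and 5.95, 7.16 and 6.93 in the combined arrays. The spiked control probe set AFFX-r2-Ec-bioB-3_at was higher by 0.53, with 6.23, 6.19 and 6.39 alone and 6.63, 6.69 and 7.06 in the combined arrays. It reads a spike and no gene of the cells, yet it passed in this limma fit with the block (adjusted p 0.0389). What this means for the other calls was not tested.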

How the results depend on the processing

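Every setting without the block gave 0 genes in each direction, and the interaction gave 0 genes in every setting that could fit it. With the replicate block the counts were 26 higher and 11 lower; 1 and 0 in the 6 arrays; 76 and 30 of the 9097 genes left after low values were removed; 26 and 7 with the mean of probe sets; 107 and 60 with trend and robust moderation; 28 and 16 after median centring; and 21 and 12 after quantile normalization. Of the 26 and 11, these settings shared 1 and 0, 17 and 9, 23 and 6, 23 and 11, 23 and 11, and 21 and 11, in that order. Removing low values or adding trend changed the genes tested or the prior and not the differences. Without all arrays of replicate number 1, 2 or 3 the blocked counts were 58 and 8, 0 and 0, and 1 and 1. The 58 and 8 held 16 of the 26 and 3 of the 11. Without 1 array they were 29 and 4, 0 and 0, and 4 and 1 (alone, numbers 1, 2 and 3); 19 and 9, 12 and 6, and 17 and 5 (iron); 28 and 14, 15 and 6, and 11 and 4 (macrophages); and 26 and 5, 0 and 0, and 0 and 0 (combined). The cause was not tested.

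Across the genes named, the sign of the difference reversed for 5 that were not called. Alb, at -0.03, gave 0.0124 and 0.0648 with the replicate block without numbers 2 and 3, and 0.0362 and 0.0802 without alone 2 and combined 3; without the block, leaving 1 array out gave -0.1059 to 0.0433. Hamp, at -0.06, gave 0.0443 and 0.0368 with the block without number 1 and without combined 1. Il6, at -0.10, gave 0.1622, 0.0295 and 0.1177 with the block without number 1, alone 1 and combined 1, and -0.2398 to 0.0649 without the block. Apob, at 0.11, gave -0.0971 with the mean of probe sets, with or without the block, and -0.2029 to 0.4059 without the block when 1 array was left out. Foxa2, at 0.03, gave -0.0013 to 0.0640 in the same way.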
